A study of Rattus norvegicus with 6 samples.

Results

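The genes described here are 55 components of the early secretory pathway, namely the COPII and COPI vesicle coats, the machinery that brings new proteins into the endoplasmic reticulum (ER), and the receptors, tethers and membrane fusion proteins of ER to Golgi traffic. They were listed by gene name, with earlier results of these arrays known. Of the 55 genes, 53 were read by at least 1 probe set that carries a single gene symbol, among 14217 genes so read on the array, and these 53 had 80 probe sets. Srpr and Srp54 are annotated under their current symbols Srpra and Srp54a and were matched through RefSeq synonyms. Sec23a and Sec24a had no such probe set and were not analysed here. Where a gene had several probe sets, the brightest on average stands for it.

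Transcript levels were measured on 6 Affymetrix 3' expression arrays of LN4D6 cells, a line of rat mammary tumour cells. The 3 CREB3L1 arrays hold RNA of LN4D6 cells transfected with CREB3L1, and the 3 untransfected arrays hold RNA of LN4D6 cells with no transfection. No array of cells given an empty vector was analysed here, so CREB3L1 and the transfection procedure cannot be told apart. The labels give neither the promoter and species of the construct nor whether the transfected cells were a pool or a clone, and they do not state separate cultures. The p-values therefore rest on the spread between arrays that may be technical repeats.

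Proteins bound for secretion or for membranes are recognised as they emerge from the ribosome by the signal recognition particle, handed to its receptor on the ER and threaded through the Sec61 channel. Finished cargo leaves the ER in vesicles coated by COPII, and vesicles coated by COPI return receptors and escaped ER proteins from the Golgi. CREB3L1 is a transcription factor anchored in the ER membrane and freed by proteolysis in the Golgi, and factors of its family are known in mouse and fish to drive COPII genes in cells that secrete large amounts of matrix.

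Levels are log2 RMA values, and differences are CREB3L1 minus untransfected on that scale ± the standard error from limma, so that a difference of 1 is a doubling. Adjusted p-values are Benjamini-Hochberg values over all 31042 tested probe sets, with a threshold of 0.05. A log2 value of 5 was taken as the background level. The basal keratin genes Krt5 and Krt14 and the basal regulator Tp63 were above that level in both groups, with levels of 14.81 in CREB3L1 cells and 14.67 in untransfected cells for Krt5, 15.08 in CREB3L1 cells and 15.25 in untransfected cells for Krt14 and 11.53 in CREB3L1 cells and 11.80 in untransfected cells for Tp63. Of 7 luminal epithelial markers only Krt8 was above it, and Krt18, Krt19, Epcam, Cdh1, Cldn3 and Cldn4 lay below it in both groups. Of the other basal markers Acta2 was above it, and Krt17 and Cnn1 were below it. All 12 measured markers of fibroblasts, endothelium and leukocytes lay below it. The probe set of Creb3l1 itself read 3.39 ± 0.03 in CREB3L1 cells and 3.36 ± 0.02 in untransfected cells, below background, and transcripts of the construct may carry no match to it, so this checks neither the labels nor the transfection.

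CREB3L1 replicate 3 stood apart from the other 5 arrays. The 3' probe set of Gapdh exceeded its 5' probe set by 4.77 there, against -0.16 to -0.10 elsewhere, and beta-actin showed a gap of 7.44 against 2.35 to 3.41. Among the 53 genes the median absolute difference between CREB3L1 replicates 1 and 2 was 0.05, while replicate 3 lay a median of 0.26 from their mean. Differences are given with all 6 arrays, and beside them without this one. The part of RNA quality on this array in any result was not tested.

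With all 6 arrays, 0 of the 53 genes were higher and 0 lower at the threshold by limma, where 0.577% of all genes were higher and 1.52% lower. At an unadjusted p below 0.05, 12 were higher and 1 was lower, where 6.05% of all genes were higher and 7.99% lower at that level. Without CREB3L1 replicate 3, 4 genes rose and 0 fell: Sec24d, Sar1a, Tmed3 and Arf4. Among all genes 2.02% were higher and 3.7% lower in that comparison, and among the 7714 genes above background 3.59% were higher and 6.46% lower, so the 4 risers are 7.55% of the 53. The differences of the 53 genes with all 6 arrays ran from -0.43 for Sec63 to 0.95 for Sec24d.

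The shift across the genes was small, and its median was nearly equal on all CREB3L1 arrays. Measured from the untransfected mean of each gene, the median of the 53 genes was 0.11, 0.11 and 0.11 on CREB3L1 replicates 1, 2 and 3, against 0.03, 0.00 and -0.01 on untransfected replicates 1, 2 and 3. The untransfected arrays form that mean, so their medians are drawn toward 0 by construction and are no like contrast to the CREB3L1 medians. The same median over all genes above background was -4e-04, -0.02 and 0.03 on the CREB3L1 arrays. Of the 53 genes, 41, 40 and 29 lay above their untransfected mean on CREB3L1 replicates 1, 2 and 3, against 36, 27 and 18 on untransfected replicates 1, 2 and 3. Untransfected replicate 1 had more such genes than CREB3L1 replicate 3, so this count did not separate the groups. The median of the group differences was 0.08 over the 53 genes and 0.01 over all genes above background, and without CREB3L1 replicate 3 it was 0.11 and -0.01.

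Among the 52 of these genes above background in at least 1 group, all CREB3L1 arrays lay above all untransfected arrays for 15 and below them for 1, which is 28.8% and 1.92%. Of all 7714 genes above background, 14.7% were separated upward and 16.5% downward. With CREB3L1 replicate 3 left out the numbers were 25 upward and 4 downward, or 48.1% and 7.69%, against 22.8% and 27.6% of all genes above background. The genes were chosen with earlier results of these arrays known, so these shares describe the list and carry no test.

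**Figure D1:**
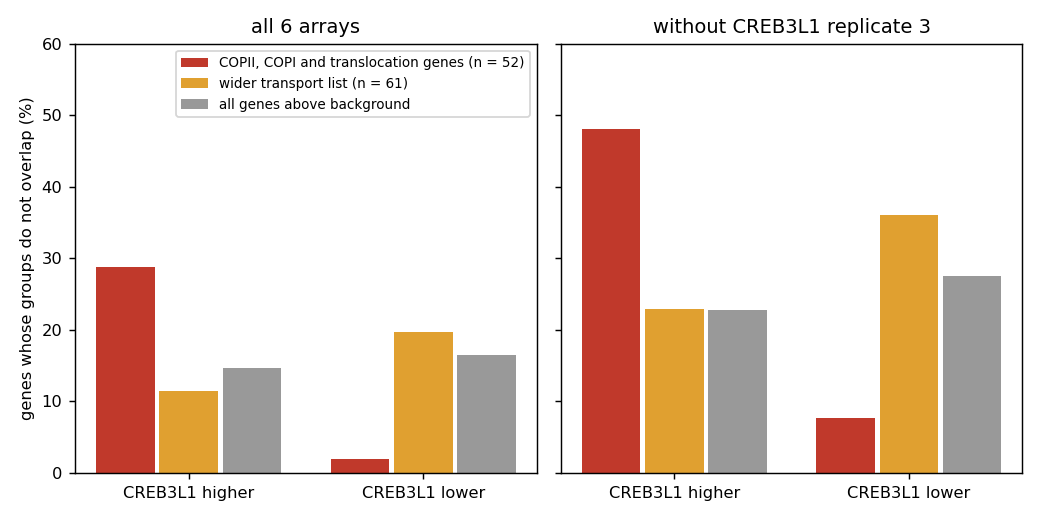
The bars give the percentage of genes whose CREB3L1 arrays lay all above or all below the untransfected arrays, with all 6 arrays (left) and without CREB3L1 replicate 3 (right), for the 52 early secretory genes above background, 61 other transport genes and all genes above background. Upward separation covered 28.8% of these 52 early secretory genes with all 6 arrays and 48.1% without CREB3L1 replicate 3, against 14.7% and 22.8% of all genes above background.

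The COPII coat had the gene with the largest difference. COPII vesicles are built when the small GTPase Sar1 recruits the inner coat of Sec23 and Sec24, and the outer coat of Sec13 and Sec31 then shapes the bud. Of 10 measured COPII coat and exit site genes, 8 had a positive difference. Without CREB3L1 replicate 3, 2 of them rose, where 2.02% of all genes and 3.59% of those above background did. In that comparison 4 of the 10 were separated upward and 2, Sar1b and Mia3, downward. The shares over all genes above background were 22.8% upward and 27.6% downward. With all 6 arrays 4 of the 10 were separated upward and 0 downward, against 14.7% and 16.5% of all genes above background. Sec24d encodes one of the Sec24 paralogs that select cargo. Its log2 levels on replicates 1, 2 and 3 were 11.41, 11.47 and 11.91 in CREB3L1 cells, against 10.54, 10.69 and 10.71 in untransfected cells. Every CREB3L1 array was higher than every untransfected array by a margin wider than the spread within either group, and CREB3L1 replicate 3 was the highest of all.

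The difference of Sec24d was 0.95 ± 0.15, a 1.93-fold difference in level that missed the threshold with all 6 arrays (adjusted p = 0.0624, limma). Without CREB3L1 replicate 3 it was 0.79 ± 0.07, or 1.73-fold, and passed (adjusted p = 0.00722). Its 95% interval with all 6 arrays was 0.58 to 1.32. Over all 19 alternatives run, the adjusted p ranged from 0.000898 to 0.242, and Sec24d passed in 7 of them. Only 2 of these keep every CREB3L1 array, namely the filter on dim probe sets and array weights. With array weights, which do not count the arrays equally, the difference was 0.805, near that without CREB3L1 replicate 3.

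The other measured Sec24 genes gave smaller differences. Sec24c, which belongs to the same Sec24 subclass as Sec24d, had log2 levels of 11.25, 11.30 and 11.72 in CREB3L1 cells, against 11.09, 10.98 and 11.25 in untransfected cells. The lowest CREB3L1 array and the highest untransfected array were level, and the difference was 0.31 ± 0.15 (adjusted p = 0.661, limma), or 0.17 ± 0.09 without CREB3L1 replicate 3. A second Sec24c probe set gave -1.29 with all 6 arrays and 0.18 without CREB3L1 replicate 3, which read 2.51 there against 6.70 to 7.01 on the other 5 arrays. Sec24b had differences of -0.05 and 0.22 on its 2 probe sets, and both gave 0.09 when that array was left out. Measured within each array from the mean of Sec24b and Sec24c, and set to 0 at the untransfected mean, Sec24d stood at 0.66, 0.67 and 1.12 on CREB3L1 replicates 1, 2 and 3, against -0.01, 0.06 and -0.05 on the untransfected arrays. The balance within the Sec24 family was therefore shifted toward Sec24d on each CREB3L1 array, the unequal change being described here without a test.

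Sar1a and Sar1b encode the GTPases that start COPII assembly, and of these Sar1a rose without CREB3L1 replicate 3. Sar1a had log2 levels of 12.80, 12.80 and 12.93 in CREB3L1 cells, against 12.54, 12.55 and 12.52 in untransfected cells. The groups did not overlap, and the untransfected arrays were nearly equal. The difference was 0.31 ± 0.05 with all 6 arrays (adjusted p = 0.0615, limma) and 0.26 ± 0.03 without CREB3L1 replicate 3 (adjusted p = 0.0224), with adjusted p-values of 0.00814 to 0.578 over the alternatives. Sar1a passed in 5 of the 19 alternatives. A second Sar1a probe set overlapped between the groups, with 0.23 ± 0.20 and, without CREB3L1 replicate 3, 0.01 ± 0.05, so the rise rests on 1 of 2 probe sets. Sar1b gave 0.00 ± 0.09, and -0.08 ± 0.06 without CREB3L1 replicate 3 (adjusted p = 0.798). The within-array balance of Sar1a over Sar1b, set to 0 at the untransfected mean, was 0.30 ± 0.07 in CREB3L1 cells and 0.00 ± 0.09 in untransfected cells (SD, n = 3 each).

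**Figure D2:**
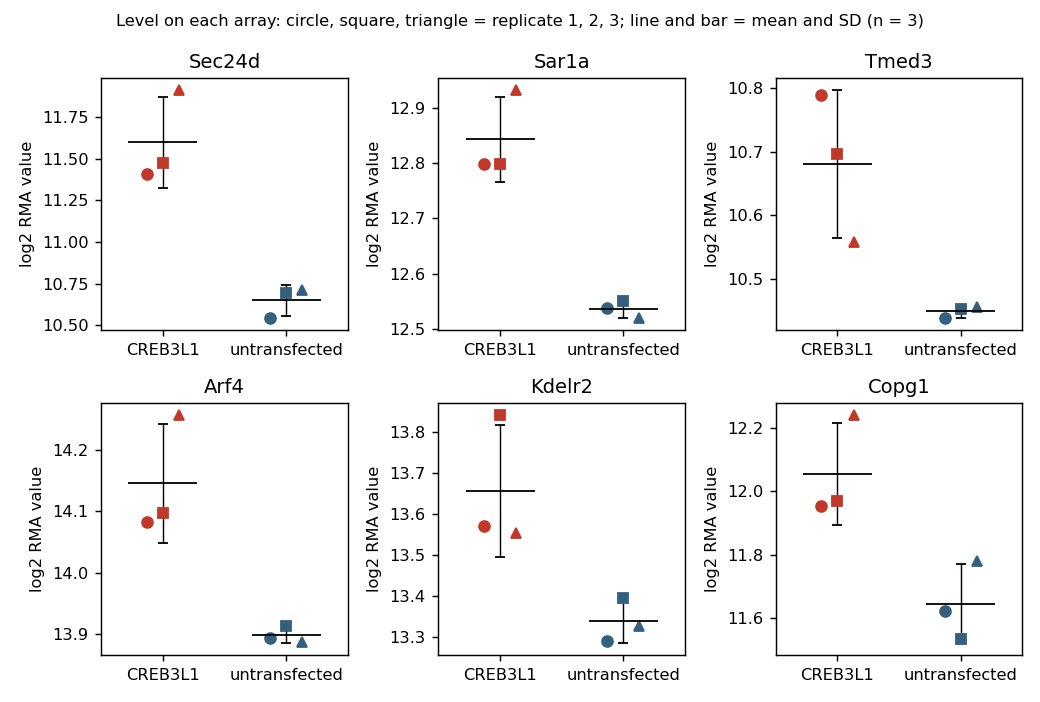
The log2 RMA level of 6 genes is drawn for each array, with CREB3L1 at the left and untransfected at the right of each panel, symbols for replicates 1 to 3, and the mean with its SD. The groups do not overlap for any of the 6 genes, and CREB3L1 replicate 3 is the highest array for Sec24d, Sar1a, Arf4 and Copg1 and the lowest CREB3L1 array for Tmed3 and Kdelr2. The genes were picked among the higher ones, so their separation describes the choice. Of all genes above background, 14.7% were separated upward. Second probe sets of Sar1a and Copg1, not drawn, overlapped between groups.

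Sec31a and Sec16a drew most of their difference from CREB3L1 replicate 3. Sec31a, the outer coat subunit, had log2 levels of 7.33, 7.32 and 9.18 in CREB3L1 cells, against 7.23, 7.09 and 7.29 in untransfected cells. The third CREB3L1 array was far above the rest, and the other 2 lay just above the untransfected arrays. The difference was 0.74 ± 0.54 (adjusted p = 0.978, limma), and 0.12 ± 0.07 without that array (adjusted p = 0.595). Sec16a, the scaffold that marks ER exit sites, had log2 levels of 9.23, 9.06 and 9.98 in CREB3L1 cells, against 9.01, 9.04 and 9.27 in untransfected cells. Its difference was 0.32 with all 6 arrays and 0.04 without CREB3L1 replicate 3, and a second probe set gave 0.21 and 0.02. Sec13, shared with the nuclear pore, gave 0.25 ± 0.08 with groups that did not overlap (adjusted p = 0.366, limma). The inner coat gene Sec23b gave 0.23, and Mia3, whose product TANGO1 loads collagen into COPII carriers, gave -0.03 and -0.15 on its 2 probe sets. When CREB3L1 replicate 3 was left out, the differences were 0.18 for Sec13, 0.07 for Sec23b, and -0.10 and -0.06 for the Mia3 probe sets.

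For protein targeting to and entry into the ER, 18 genes were measured, and none passed the test with or without CREB3L1 replicate 3. Their median difference was -0.01 with all 6 arrays and 0.07 without it. With all 6 arrays 4 of the 18 were separated upward and 1 downward, against 14.7% and 16.5% of all genes above background. Without CREB3L1 replicate 3 these counts were 7 and 2, against 22.8% and 27.6%. Of the channel subunits, Sec61a1, the pore itself, had log2 levels of 11.64, 11.64 and 12.52 in CREB3L1 cells, against 11.55, 11.39 and 11.63 in untransfected cells. The groups were separated, with the third CREB3L1 array far above the rest, and the difference was 0.41 ± 0.26 with all arrays (adjusted p = 0.903, limma) and 0.12 ± 0.08 without that array. A second bright Sec61a1 probe set gave 0.03 with all 6 arrays and 0.62 without CREB3L1 replicate 3. The small subunits Sec61g and Sec61b gave 0.30 and -0.03, and 0.11 and -0.04 when that array was left out.

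Sec62 and Sec63 form the complex that helps proteins enter the channel after translation. Only their brightest probe sets lay on opposite sides of the untransfected level both with and without CREB3L1 replicate 3. Sec63 had the lowest difference of all 53 genes, with log2 levels of 11.03, 11.00 and 10.62 in CREB3L1 cells, against 11.41, 11.32 and 11.23 in untransfected cells. With all 6 arrays it was the only one of the 53 representative probe sets whose CREB3L1 arrays all lay below all untransfected arrays, at -0.43 ± 0.13 (adjusted p = 0.304, limma), and -0.30 ± 0.06 without CREB3L1 replicate 3 (adjusted p = 0.0827). The other 3 Sec63 probe sets overlapped between groups, at -0.31, -1.20 and -0.02. Leaving out CREB3L1 replicate 3, these were 0.08, 0.31 and 0.04, so the probe sets did not share a direction. Sec62 gave 0.21 ± 0.05 and 0.26 ± 0.10 on its 2 probe sets, both with separated groups (adjusted p = 0.167 and 0.53, limma). When CREB3L1 replicate 3 was left out they were 0.17 and 0.17.

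Of the signal recognition particle and its receptor, Srp9 had log2 levels of 13.42, 13.36 and 12.73 in CREB3L1 cells, against 13.44, 13.38 and 13.26 in untransfected cells. The groups overlapped, only CREB3L1 replicate 3 was low, and the difference of -0.18 became 0.04 without that array. Srp14, which pairs with Srp9 in the part of the particle that slows translation, gave -0.05 with all 6 arrays and -0.16 without that one. Srp54, the subunit that binds the signal sequence, gave -0.01 on its brightest probe set and -0.46 ± 0.14 on a dimmer one with separated groups (adjusted p = 0.332, limma). Leaving out that array gave 0.12 and -0.57, so the 2 probe sets then had opposite signs. Srprb anchors the receptor in the ER membrane, and its brightest probe set had log2 levels of 11.79, 11.71 and 11.77 in CREB3L1 cells, against 11.66, 11.56 and 11.58 in untransfected cells. These groups were separated at 0.16 ± 0.04 (adjusted p = 0.27, limma) and 0.15 without CREB3L1 replicate 3, while a second probe set gave -0.85 with a level of 7.16 on that array and 0.30 without it. The receptor gene Srpr gave 0.21 with all 6 arrays and 0.01 without CREB3L1 replicate 3.

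Genes acting beside the channel gave differences of -0.09 to 0.10 with all 6 arrays. Tram1, which aids membrane insertion, had log2 levels of 13.67, 13.59 and 13.38 in CREB3L1 cells, against 13.73, 13.67 and 13.51 in untransfected cells, with overlapping groups and a difference of -0.09 ± 0.10, or -0.01 ± 0.08 without CREB3L1 replicate 3. The 4 subunits of the translocon-associated complex, Ssr1, Ssr2, Ssr3 and Ssr4, gave -0.06, -0.02, 0.04 and 0.08, and 0.19, 0.12, -0.04 and 0.12 with CREB3L1 replicate 3 left out. The signal peptidase genes Spcs1, Spcs2 and Spcs3 gave 0.10, -0.01 and -0.02. Of these Spcs2 moved to 0.32 ± 0.09 without CREB3L1 replicate 3 (adjusted p = 0.174, limma), against 0.02 for Spcs1 and -0.02 for Spcs3.

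**Figure D3:**
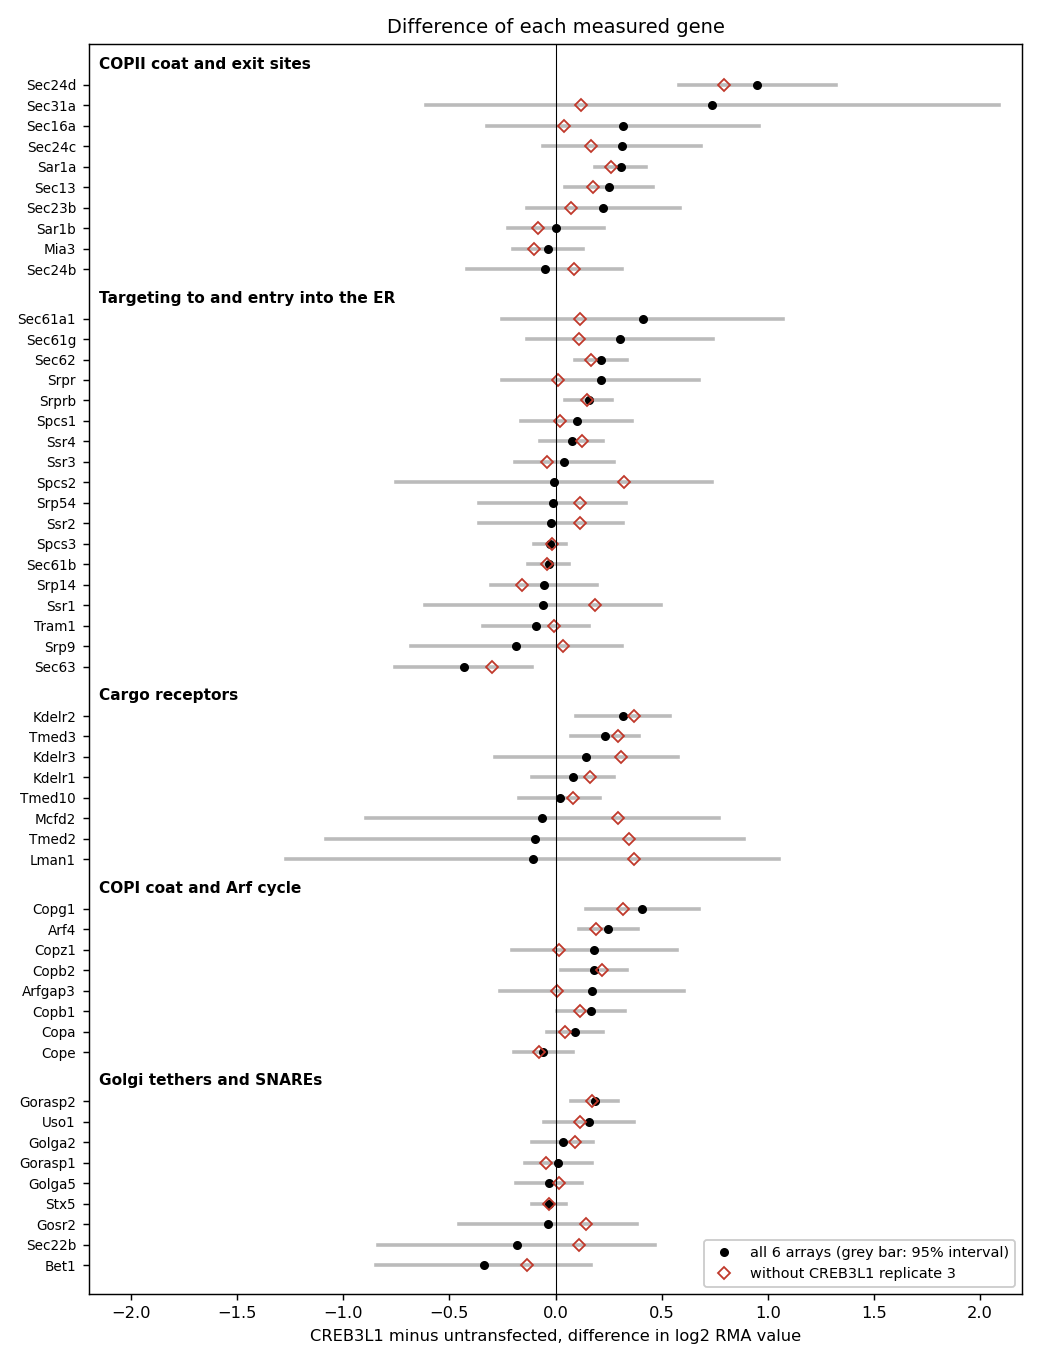
Each row is 1 of the 53 measured genes, grouped by role, with the CREB3L1 minus untransfected difference in log2 level for all 6 arrays (black, with its 95% interval) and without CREB3L1 replicate 3 (open diamonds). Sec24d stands to the right of all other genes in both comparisons, at 0.95 and 0.79, and all 8 cargo receptor genes lie to the right of 0 without CREB3L1 replicate 3.

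Cargo receptors and the receptors that bring ER proteins home showed a shared dependence on 1 array. On CREB3L1 replicate 3 all 8 of them lay below the mean of CREB3L1 replicates 1 and 2, by 0.15 for Kdelr2 to 1.34 for Tmed2 among the 7 above background, whereas 9 of the 10 COPII genes and 7 of the 8 COPI and Arf genes lay above it. Between these were the targeting and entry genes, with 9 of 18 above it, and the Golgi tethers and SNAREs, with 4 of 9. Of all genes above background, 55.7% lay above it. The median difference of the 8 cargo receptor genes was 0.05 with all 6 arrays and 0.30 without CREB3L1 replicate 3, when all 8 were positive. Of the 7 above background 6 were then separated upward, where 22.8% of all genes above background were. With all 6 arrays 2 of the 8, Kdelr2 and Tmed3, were separated upward, where 14.7% of all genes above background were.

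Tmed3 encodes a p24 protein that cycles between ER and Golgi and sorts cargo. Its log2 levels were 10.79, 10.70 and 10.56 in CREB3L1 cells, against 10.44, 10.45 and 10.46 in untransfected cells. The untransfected arrays were nearly equal, and every CREB3L1 array was above them. The difference was 0.23 ± 0.06 with all 6 arrays (adjusted p = 0.262, limma) and 0.29 ± 0.04 without CREB3L1 replicate 3, where it rose (adjusted p = 0.0302). Over the 19 alternatives the adjusted p ranged from 0.0199 to 0.678, and Tmed3 passed in 5 of them.

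Tmed2, another p24 gene, had log2 levels of 13.93, 13.92 and 12.59 in CREB3L1 cells, against 13.68, 13.64 and 13.42 in untransfected cells. CREB3L1 replicates 1 and 2 were above all untransfected arrays and replicate 3 was below them all, so the difference was -0.10 ± 0.39 with all 6 arrays and 0.35 ± 0.09 without CREB3L1 replicate 3 (adjusted p = 0.129, limma). A second Tmed2 probe set showed the same reversal, at -0.42 with that array and 0.95 without it. Tmed10, also a p24 gene, gave 0.02 with it and 0.08 without it.

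The KDEL receptors return chaperones that leak out of the ER. Kdelr2 had log2 levels of 13.57, 13.84 and 13.55 in CREB3L1 cells, against 13.29, 13.40 and 13.33 in untransfected cells. The groups were separated, with a difference of 0.32 ± 0.09 (adjusted p = 0.27, limma) and 0.37 ± 0.09 without CREB3L1 replicate 3 (adjusted p = 0.116). Kdelr1 and Kdelr3 gave 0.08 and 0.14 with all 6 arrays, and 0.16 and 0.31 without CREB3L1 replicate 3. The balance of Kdelr3 over its paralogs, taken within arrays from the untransfected mean, was -0.06 ± 0.28 in CREB3L1 cells and 0.00 ± 0.09 in untransfected cells (SD, n = 3 each), a shift smaller than its spread. Lman1, a lectin that carries clotting factors in humans, averaged 4.36 ± 0.86 in CREB3L1 cells and 4.46 ± 0.33 in untransfected cells, below background in both groups, and its partner Mcfd2 gave -0.06 with all 6 arrays and 0.29 without CREB3L1 replicate 3.

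**Figure D4:**
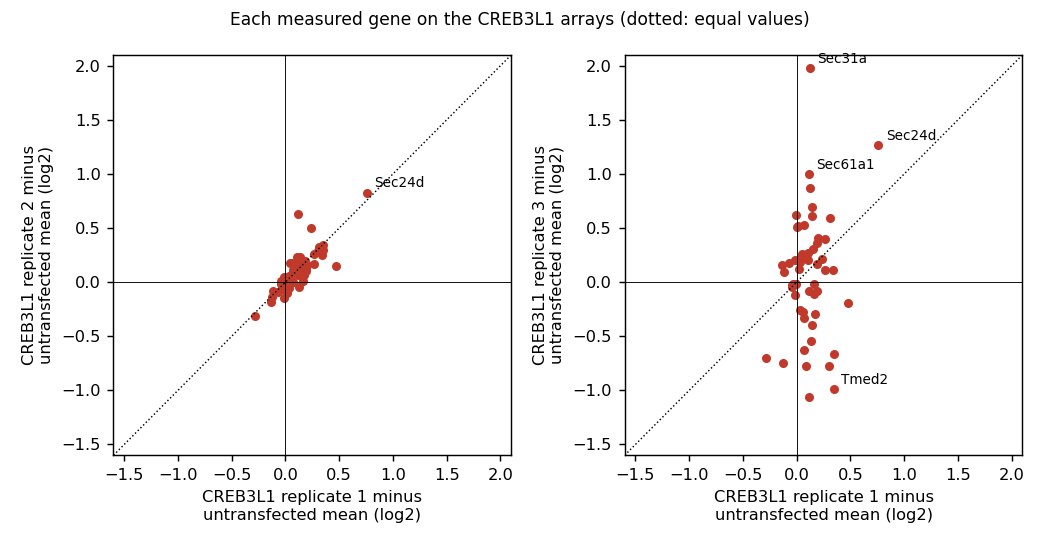
Each point is 1 of the 53 genes, plotted as its log2 level minus the untransfected mean on CREB3L1 replicate 1 (horizontal) against replicate 2 (left) or replicate 3 (right). The points of replicate 2 lie close to the dotted line of equal values. On the vertical axis those of replicate 3 spread from -1.06, for Lman1, which is below background, to 1.97, for Sec31a.

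The COPI coat and the Arf GTPase cycle that recruits it had 8 measured genes, of which 7 had a positive difference. With all 6 arrays 4 were separated upward, where 14.7% of all genes above background were. Without CREB3L1 replicate 3 the count was also 4, where 22.8% of all genes above background were. Arf4 encodes a GTPase of this cycle, and its log2 levels were 14.08, 14.10 and 14.26 in CREB3L1 cells, against 13.89, 13.91 and 13.89 in untransfected cells. The untransfected arrays were again nearly equal, and all CREB3L1 arrays lay above them. The difference was 0.25 ± 0.06 (adjusted p = 0.162, limma), and without CREB3L1 replicate 3 Arf4 rose by 0.19 ± 0.03, just inside the threshold (adjusted p = 0.0497), with adjusted p-values of 0.0236 to 0.468 over the alternatives. The rise without CREB3L1 replicate 3 is a 1.14-fold change in level. Arf4 passed in 2 of the 19 alternatives. It passed in no setting that combined leaving out CREB3L1 replicate 3 with another change.

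Copg1, the gamma subunit of the coat, had log2 levels of 11.95, 11.97 and 12.24 in CREB3L1 cells, against 11.62, 11.53 and 11.78 in untransfected cells. The groups did not overlap, at 0.41 ± 0.11 (adjusted p = 0.225, limma) and 0.32 ± 0.08 without CREB3L1 replicate 3, but a second probe set gave 0.07 with all 6 arrays and -0.04 without CREB3L1 replicate 3. Copb1 and Copb2, the beta subunits, had separated groups at 0.17 and 0.18 (0.12 and 0.22 without CREB3L1 replicate 3), and neither passed. Copz1 had log2 levels of 11.41, 11.41 and 11.92 in CREB3L1 cells, against 11.46, 11.30 and 11.43 in untransfected cells on its brighter probe set and 8.88, 8.99 and 8.22 in CREB3L1 cells, against 9.14, 8.89 and 8.43 in untransfected cells on the other. Both overlapped between groups, and they gave 0.18 and -0.12 with all 6 arrays and 0.01 and 0.12 without CREB3L1 replicate 3, so their signs were opposite only with that array. Copa gave 0.09, Cope -0.06 and Arfgap3, which switches Arf off, 0.17. Leaving out CREB3L1 replicate 3 gave 0.05 for Copa, -0.08 for Cope and 0.01 for Arfgap3.

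At the Golgi, 9 tether and SNARE genes were measured, and none passed with or without CREB3L1 replicate 3. Gorasp2, which links Golgi stacks, was the only one with separated groups with all 6 arrays, at 0.18 ± 0.04 (adjusted p = 0.188, limma) and 0.17 without CREB3L1 replicate 3. Upward separation with all 6 arrays covered 14.7% of all genes above background. Without CREB3L1 replicate 3, 4 of the 9 were separated upward, against 22.8% of all genes above background. Bet1, a SNARE of ER to Golgi fusion, had log2 levels of 12.22, 12.21 and 11.60 in CREB3L1 cells, against 12.43, 12.48 and 12.14 in untransfected cells. CREB3L1 replicate 3 was the lowest array, the groups overlapped, and the difference was -0.34 ± 0.20, or -0.13 without that array. A second Bet1 probe set gave -0.27 and 0.07 in these comparisons. Sec22b, its partner SNARE, had log2 levels of 11.44, 11.49 and 10.59 in CREB3L1 cells, against 11.43, 11.37 and 11.27 in untransfected cells. It too was low on CREB3L1 replicate 3 alone, so that -0.18 became 0.11 without that array, while a second probe set gave 0.10 with it and -0.08 without it. The remaining differences were 0.16 for the tether Uso1, 0.03 for Golga2, -0.03 for Golga5, 0.01 for Gorasp1, -0.04 for Gosr2 and -0.03 for Stx5. In the same order they were 0.11, 0.09, 0.02, -0.04, 0.15 and -0.03 with CREB3L1 replicate 3 left out.

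Probe sets of the same gene were compared for the 19 genes with 2 or more of them above background in both groups. The range between a gene's probe sets had a median of 0.29 in the difference with all 6 arrays and 0.15 without CREB3L1 replicate 3, and it was narrower without that array for 10 of the 19. The widest range was 1.60, for Sec24c, with all 6 arrays and 0.69, for Srp54, without CREB3L1 replicate 3. Stx5 was a further case, with -0.03 on one probe set and -1.20 on another that read 4.51 on CREB3L1 replicate 3 and 8.03 to 8.67 on the other arrays, and -0.03 and 0.10 without that array.

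**Figure D5:**
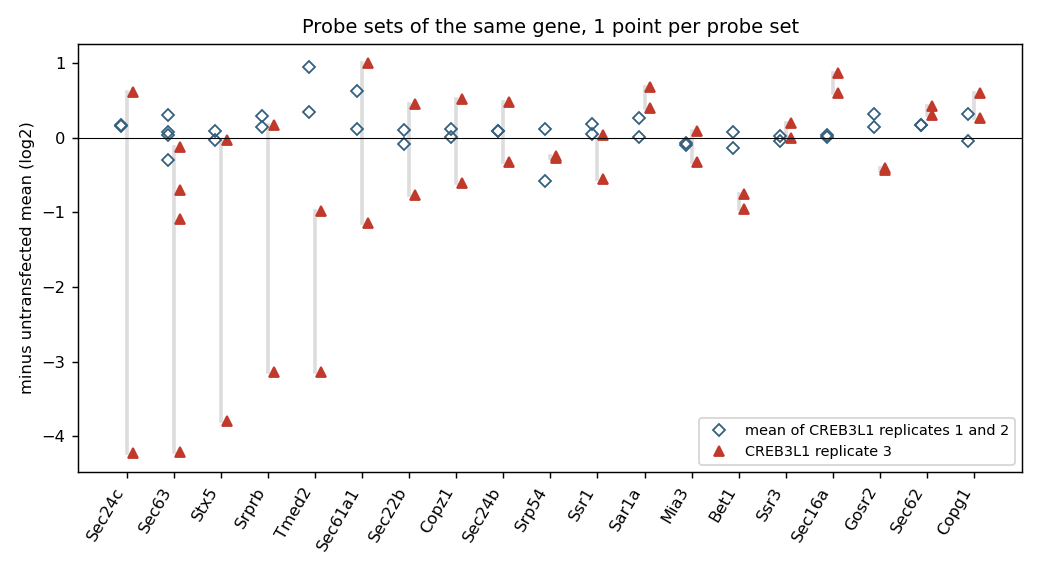
For 19 genes with 2 or more probe sets above background, each probe set's log2 level minus its untransfected mean is drawn for the mean of CREB3L1 replicates 1 and 2 (open diamonds) and for CREB3L1 replicate 3 (triangles, joined by a grey line within a gene). The triangles of Sec24c, Sec63, Stx5, Tmed2 and Srprb each include 1 probe set at -3.13 or lower, while the lowest diamond, of Srp54, lies at -0.57.

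Promoters were read from the RefSeq promoter table of assembly GRCr8, in windows of 300 bases that run from 250 before to 50 after each gene's start. The table held 48 of the 55 genes, and Sec24c, Sec24d, Sar1a, Sec61a1, Kdelr2, Gorasp2 and Tram1 were not matched in it. On both strands, ACGTG was found in 30 of the 48 windows, or 62.5%, against 27.1% of 7215 windows of genes above background and 19.3% of all 33469 windows. TGACGT, the start of a cyclic AMP response element, was found in 15, or 31.2%, against 12.8% and 7.94%. CCACG was found in 30, or 62.5%, against 48.8% and 31.6%, and CCAAT in 19, or 39.6%, against 38.6% and 37.5%. The first 3 motifs can overlap each other, as TGACGT runs into ACGTG when a G follows, and CCACG shares most of its letters with the reverse complement of ACGTG when a T follows.

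The upstream stretches of Arf4 and Tmed3, which rose without CREB3L1 replicate 3, are shown with those of Copg1 and Kdelr3. The last 2 had differences of 0.316 and 0.311 there and did not pass. They are examples and were not picked by rank, as Tmed2 and Spcs2 gave 0.348 and 0.323 there without passing. The window of Kdelr3 holds 3 ACGTG and 4 CCACG matches, whereas that of Spcs2 holds 1 CCACG match and no ACGTG or TGACGT. That of Tmed2 holds 2 ACGTG and 2 CCACG matches, so the windows of the higher genes differ. How typical the 4 stretches are of these genes was not tested. Each runs 5′ to 3′ toward the gene over the 250 bases before its start, and capitals mark ACGTG and TGACGT and CCACG on either strand.
Arf4 promoter, chr16:1903186-1903435, plus strand: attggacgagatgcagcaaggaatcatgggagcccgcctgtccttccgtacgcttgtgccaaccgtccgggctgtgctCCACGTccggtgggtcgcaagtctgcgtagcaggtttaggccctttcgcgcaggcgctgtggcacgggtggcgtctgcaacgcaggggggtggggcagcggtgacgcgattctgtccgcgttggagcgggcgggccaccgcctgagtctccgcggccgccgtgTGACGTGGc
Tmed3 promoter, chr8:99129278-99129527, minus strand: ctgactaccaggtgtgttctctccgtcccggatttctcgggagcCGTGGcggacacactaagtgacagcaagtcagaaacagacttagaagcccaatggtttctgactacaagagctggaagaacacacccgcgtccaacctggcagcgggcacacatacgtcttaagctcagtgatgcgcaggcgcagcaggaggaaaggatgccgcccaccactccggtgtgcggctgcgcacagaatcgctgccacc
Copg1 promoter, chr4:121923712-121923961, plus strand: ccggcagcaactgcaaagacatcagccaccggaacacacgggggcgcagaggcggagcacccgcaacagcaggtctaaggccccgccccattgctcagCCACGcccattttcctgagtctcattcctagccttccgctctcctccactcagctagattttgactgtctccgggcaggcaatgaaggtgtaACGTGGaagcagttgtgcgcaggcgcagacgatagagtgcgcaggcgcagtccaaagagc
Kdelr3 promoter, chr7:112959382-112959631, plus strand: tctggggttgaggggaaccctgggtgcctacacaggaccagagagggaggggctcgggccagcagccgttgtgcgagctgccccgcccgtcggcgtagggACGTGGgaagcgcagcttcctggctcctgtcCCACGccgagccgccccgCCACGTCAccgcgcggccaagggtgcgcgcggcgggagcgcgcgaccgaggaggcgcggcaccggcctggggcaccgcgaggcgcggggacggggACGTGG

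In Arf4 a TGACGT begins 9 bases before the start and runs into an ACGTG. Kdelr3 holds 3 ACGTG matches upstream, 1 of them overlapping a TGACGT on the reverse strand. Tmed3 has a single CCACG match upstream, on the reverse strand, and its ACGTG lies 26 bases into the transcribed side. Over the 46 measured genes with a window, the median difference with all 6 arrays was 0.09 for 29 with ACGTG and -0.01 for 17 without it, and 0.12 for 14 with TGACGT and 0.01 for 32 without it. When CREB3L1 replicate 3 was left out, these medians were 0.11 with ACGTG and 0.07 without it, and 0.06 with TGACGT and 0.11 without it, so the order for TGACGT turned with that array. For CCACG the medians were 0.03 for 29 with it and 0.00 for 17 without it with all 6 arrays, and 0.11 and 0.02 when that array was left out. For CCAAT they were 0.01 for 18 with it and 0.09 for 28 without it with all 6 arrays, and 0.08 and 0.11 when that array was left out. A match describes letters in the window and is not a bound site.

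To set these genes beside the rest of the pathway, 65 further genes of coats, cargo receptors and tethering complexes were listed, and 64 were measured. By limma 0 of these rose and 2 fell with all 6 arrays, against 0.577% and 1.52% of all genes. At an unadjusted p below 0.05 by limma, 4 were higher and 8 lower, against 6.05% and 7.99% of all genes. Without CREB3L1 replicate 3, 1 rose and 4 fell. In that comparison 2.02% of all genes were higher and 3.7% lower, and 3.59% and 6.46% of those above background. The median difference of the 64 genes was -0.03 with all 6 arrays and also without CREB3L1 replicate 3. Of the 61 above background 7 were separated upward and 12 downward with all 6 arrays. These are 11.5% and 19.7%, against 14.7% and 16.5% of all genes above background. Leaving out CREB3L1 replicate 3, 23% and 36.1% were, against 22.8% and 27.6% of all genes above background.

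The genes that fell were Tmed4, a p24 gene, and Trappc2, of the TRAPP tethering complex. Tmed4 had log2 levels of 9.40, 9.42 and 9.24 in CREB3L1 cells, against 9.78, 9.80 and 9.78 in untransfected cells. The groups were wide apart relative to their spread, at -0.43 ± 0.06 (adjusted p = 0.0392, limma, and 0.00401 to 0.759 over the alternatives), and -0.38 without CREB3L1 replicate 3. A second Tmed4 probe set overlapped between groups, at -1.22 and -0.22. Trappc2 had log2 levels of 8.94, 8.56 and 8.98 in CREB3L1 cells, against 9.79, 9.99 and 9.83 in untransfected cells. All CREB3L1 arrays were lower, at -1.04 ± 0.13 (adjusted p = 0.0335, limma, and 0.00125 to 0.232 over the alternatives), and -1.12 without CREB3L1 replicate 3.

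Copg2 and Mia2 also fell and Trappc5 rose without CREB3L1 replicate 3. Copg2, the paralog of Copg1, had log2 levels of 11.09, 10.97 and 10.30 in CREB3L1 cells, against 11.47, 11.51 and 11.56 in untransfected cells, lower on every CREB3L1 array. Its difference was -0.73 ± 0.22 with all 6 arrays (adjusted p = 0.308, limma) and -0.48 ± 0.05 without CREB3L1 replicate 3 (adjusted p = 0.0146, limma). Mia2, a relative of Mia3, had log2 levels of 9.62, 9.63 and 10.12 in CREB3L1 cells, against 9.93, 9.93 and 10.07 in untransfected cells, where replicate 3 alone was above the untransfected arrays. Its difference was -0.19 ± 0.15 with all 6 arrays (adjusted p = 0.9998, limma) and -0.35 ± 0.05 without that array (adjusted p = 0.0366, limma). A second Mia2 probe set gave -0.28 and 0.25, so the fall rests on 1 of 2 probe sets. Trappc5, of the TRAPP complex, had log2 levels of 11.29, 11.27 and 11.94 in CREB3L1 cells, against 10.86, 10.89 and 10.88 in untransfected cells, higher on every CREB3L1 array. Its difference was 0.62 ± 0.19 with all 6 arrays (adjusted p = 0.327, limma) and 0.40 ± 0.03 without CREB3L1 replicate 3 (adjusted p = 0.00737, limma). A second Trappc5 probe set passed with all 6 arrays, at 0.65 ± 0.09 (adjusted p = 0.0475, limma), and gave 0.73 without CREB3L1 replicate 3.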

How the data were processed

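Per the submitters' processing notes, the authors used RMA in Partek 6.6, and the deposited values lie between 0.267 and 17.2, which were taken as log2. No label states the log base, the probe-level settings or the build. The table of 31099 probe sets was used as deposited, and 57 controls were set aside. Symbols came from GEO's platform annotation: 20826 tested probe sets had 1 symbol, 436 several and 9780 none.

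All 6 arrays entered 1 limma fit (version 3.58.1, R 4.3.3; lmFit and eBayes, two-sided, Benjamini-Hochberg over 31042 probe sets), which was tested on simulated data. Precision is limited by the 3 arrays in each group. Per-array values are given for genes past the test with or without CREB3L1 replicate 3, for the 6 highest and 6 lowest other differences above background, and for genes whose bright probe sets differ in sign by 0.3 or more. The members and lists were chosen with earlier results of these data known. Alternatives were other normalisations, filters, moderation, array weights, the mean of a gene's probe sets and leaving out each array. Settings that combine leaving out CREB3L1 replicate 3 with another change were added after seeing the data. Figures were drawn with matplotlib 3.10.9.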

Additional observations from a re-analysis of the deposited data

How the results depend on the processing

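No member passed with all 6 arrays, and the count of members higher was 1 (Sec24d, adjusted p = 0.0365) after the filter on dim probe sets, 6 with array weights (Sec24d, Sar1a, Sec62, Kdelr2, Tmed3 and Arf4) and 0 to 4 with 1 array left out. The count lower was 0 in every alternative run. The median difference of the members was 0.08, and it was 0.0939 with quantile normalisation, 0.10 with array weights, 0.0331 with a gene's probe sets averaged, and 0.0322 to 0.113 with 1 array left out, the lowest without CREB3L1 replicate 1 and the highest without CREB3L1 replicate 3. Leaving out CREB3L1 replicate 3 gave 0.12 with median centring, 0.10 with quantile normalisation and 0.113 with a trend, robust eBayes or an ordinary test. Without CREB3L1 replicate 3 and with a further change, members higher numbered 2 with median centring, 3 with quantile normalisation or robust eBayes, 4 with a mean-variance trend and 0 in an ordinary test, and Sec24d was among them in each but the last. In the mean-variance trend without that array, Tmed2 passed at 0.35 (adjusted p = 0.0429), opposite in sign to its -0.10 with all arrays. Of the further transport genes, 0 were higher and 2 lower with all 6 arrays. The count higher was 1 with array weights or with probe sets averaged, 0 or 1 with 1 array left out, and 0 to 2 without CREB3L1 replicate 3 and with a further change, the 2 with a mean-variance trend. The count lower was 1 with quantile normalisation, median centring, the dim filter, a mean-variance trend or probe sets averaged, 0 in an ordinary test, 4 with array weights, 0 to 4 with 1 array left out, and 0 to 4 without CREB3L1 replicate 3 and with a further change. Both calls were lost without CREB3L1 replicate 1 and without any 1 untransfected array, and without CREB3L1 replicate 2 only Trappc2 kept its call. Over all probe sets, 132 were higher and 299 lower with 6 arrays, and 479 and 756 without CREB3L1 replicate 3. No paired analysis was possible because no numbers in the labels link arrays of both groups. The number of arrays limits what can be called, and where a cause is not given above it was not tested.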
